A study of Gallus gallus with 8 samples.

Results

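The genes described here build the machinery that takes newly made proteins into the endoplasmic reticulum (ER), folds them there and sends them on to the Golgi. The members are the rows whose gene symbol matches a list of names, and that list was drawn up with earlier results of these data known. The set holds the signal recognition particle (SRP) and its receptor, the SEC61 translocon with the translocon-associated SSR proteins, signal peptidase, the ER chaperones, the protein disulfide isomerases (PDIs), the COPII coat, the TMED cargo receptors, the KDEL receptors and the regulators XBP1, ATF6, ATF4 and HERPUD1. Of 24356 genes in the count table, 68 carried such a symbol, and all 68 passed the filter on low counts, which kept 16861 genes. A further 10501 rows had no gene name and could not match, so the set may be incomplete. DDIT3, DNAJB11, KDELR1, SSR4, SEC23B and SEC24C belong to the same families, but no row carried these names, so they were not analysed here. The name SEC23A stood on 2 rows, which are told apart below by their Ensembl identifiers. In RefSeq's chicken annotation GRCg7b SEC23A is also a synonym of SEC23B, and TMED1 is a synonym of TMED5, so these names are uncertain.

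The study compared cells committed to the ear with cells committed to the epibranchial ganglia, which both arise from shared otic-epibranchial progenitors in the chick embryo. Plasmids in which the otic enhancer Lmx1aE1 or the epibranchial enhancer Sox3U3 drives EGFP were electroporated in ovo at somite stages 3 to 5 (to 6 in the study's methods), and EGFP+ cells were sorted at somite stages 18 to 21. There were 4 Lmx1aE1-EGFP+ libraries and 4 Sox3U3-EGFP+ libraries of 2000 cells each, all from otherwise untreated embryos, with bulk RNA sequenced from each. Each group is thus defined by the activity of 1 enhancer on a plasmid in cells that took it up. The methods name whole heads as the tissue dissociated, while the account of the results names the ear region. The methods call the libraries biological replicates.

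Library totals ranged from 6559872 to 24173945 counts for Lmx1aE1-EGFP+ and from 9388922 to 45183366 for Sox3U3-EGFP+ libraries. Of the otic markers tested, 5 of 9 were higher in Lmx1aE1-EGFP+ cells, while others, PAX2 among them, were higher in Sox3U3-EGFP+ cells. All 5 epibranchial markers tested were higher in Sox3U3-EGFP+ cells. Sox3U3-EGFP library 4 stood apart from the other 3 for many of the genes below, so the counts of called genes are also given without it. In bulk samples, fewer cells of a type and less RNA per cell cannot be told apart.

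As background, a signal peptide is bound by SRP as it leaves the ribosome, and the SRP receptor brings the ribosome to the SEC61 channel. Signal peptidase removes the signal, chaperones of the HSP70 and HSP90 families and the lectins calnexin and calreticulin hold the folding chain, and PDIs form its disulfide bonds. Folded cargo leaves in vesicles coated by COPII, and escaped ER residents are carried back by the KDEL receptors. When unfolded protein accumulates, the ER membrane sensors IRE1 (gene ERN1), PERK (EIF2AK3) and ATF6 raise the expression of chaperones, in part through the transcription factors XBP1 and ATF4. Cells that secrete much protein, such as plasma cells and gland cells, are known for high levels of this machinery.

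The ER genes were called higher in Sox3U3-EGFP+ cells far more often than in Lmx1aE1-EGFP+ cells, by modest fold changes. At an adjusted p under 0.05 in edgeR's quasi-likelihood test, 29 of 68 were higher in Sox3U3-EGFP+ cells, where 11.3% of all tested genes were, and 3 were higher in Lmx1aE1-EGFP+ cells, where 12.1% of all tested genes were. The other 36 were not called. The median log2 fold change of Lmx1aE1-EGFP+ over Sox3U3-EGFP+ cells was -0.30 for the 68 genes and -0.04 for all genes tested, and the 68 values ran from -1.41 to 0.62. A negative value is higher in Sox3U3-EGFP+ cells throughout. Of the 29 genes, 8 had a log2 fold change beyond -1, and none of the 68 passed the study's second threshold, an absolute log2 fold change over 1.5 with an adjusted p under 0.05, which 3.18% of all tested genes passed. No fold change reached 1.5 on the log2 scale, so this edgeR count was also 0 at an unadjusted p under 0.05, and it was 0 with DESeq2 and with limma-voom. The background of all tested genes was not matched to the 68 in expression level, here or below. Of the 68, 45 had a mean over 100 CPM in at least 1 group. With only genes of at least 10 counts in every library, the background shares were 15.1% and 14.9%. That fit kept 31 of the 32 calls and added 2.

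For 33 of the 68 genes, or 48.5%, all libraries of 1 group lay above all libraries of the other, against 26.0% of all tested genes. These 33 include 28 of the 29 genes called higher in Sox3U3-EGFP+ cells, all 3 genes called higher in Lmx1aE1-EGFP+ cells, and SEC22A and PDIA5, which were not called. Such separation fixes the two-sided exact permutation test over libraries at 0.0286, the smallest p that 4 libraries against 4 allow. That p thus adds nothing to the separation itself. Without Sox3U3-EGFP library 4, 25 genes were called higher in Sox3U3-EGFP+ cells and 2 in Lmx1aE1-EGFP+ cells, with a median of -0.20, beside 8.85% and 10.4% of all genes tested in that fit. Within the 4 libraries above 15000000 counts (Lmx1aE1-EGFP libraries 3 and 4, Sox3U3-EGFP libraries 1 and 2) 19 and 0 genes were called. Within the 4 shallower libraries 29 and 2 were called. The shares of all genes tested were 5.65% and 6.92% in the deeper set and 6.80% and 7.38% in the shallower set. These fits hold fewer libraries, and Sox3U3-EGFP library 4 is in the shallower set only, so depth cannot be told apart here. With all 8 libraries thinned to the smallest total, 29 genes were called higher in Sox3U3-EGFP+ cells (13.8% of all genes tested). With deep and shallow libraries as blocks 32 were (13.2%).

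**Figure D1:**
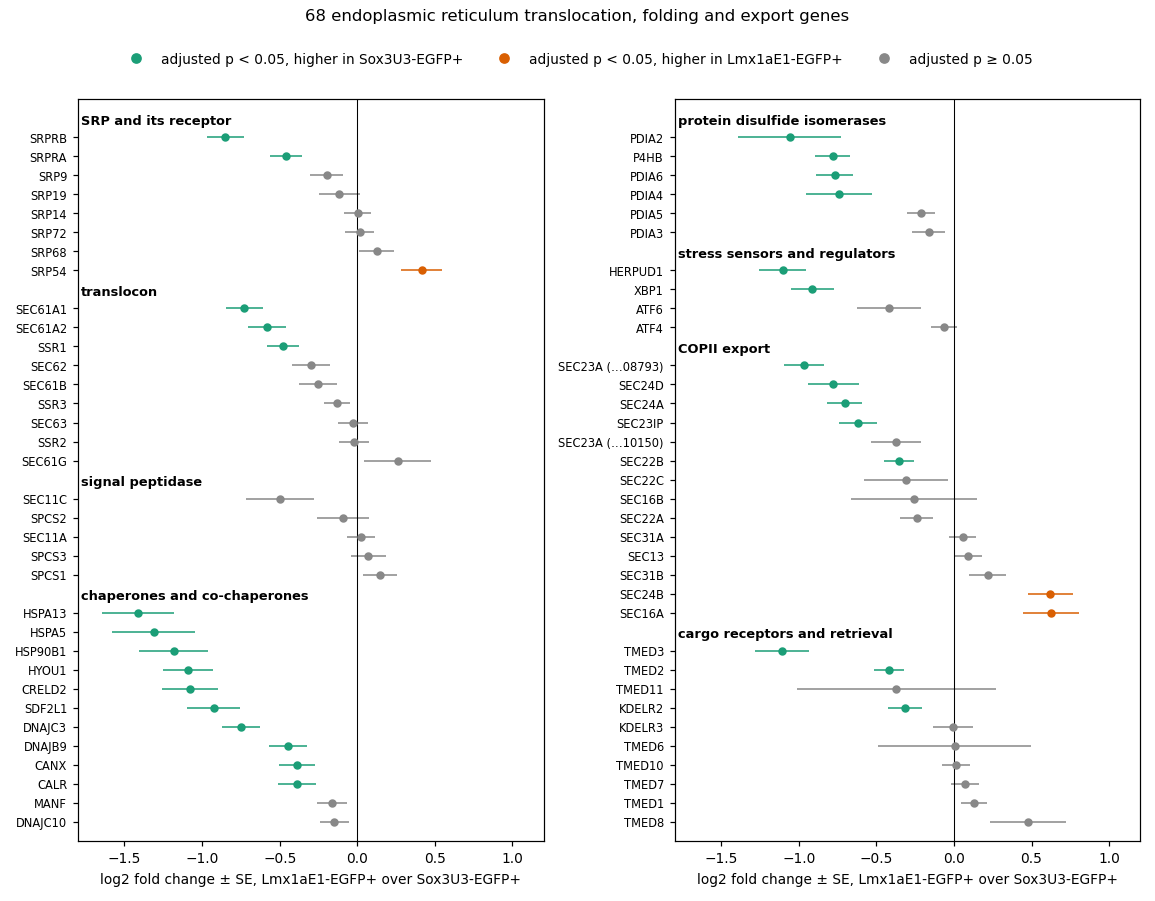
Each of the 68 genes is shown by its role with its log2 fold change of Lmx1aE1-EGFP+ over Sox3U3-EGFP+ cells (x axis) and its standard error as a bar. Green points are called higher in Sox3U3-EGFP+ cells (29), orange points higher in Lmx1aE1-EGFP+ cells (3), and grey points are not called (36). Chaperones, PDIs and stress regulators all lie left of 0, while signal peptidase and most TMED genes lie around it.

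As a share of all counts, the 68 genes took 1.61% to 1.72% in the Lmx1aE1-EGFP libraries and 2.21% to 3.41% in the Sox3U3-EGFP libraries. In CPM (counts scaled to a common library size with TMM factors), they summed to 16969 ± 891 (SD, n = 4 libraries) for Lmx1aE1-EGFP+ cells. The sum for Sox3U3-EGFP+ cells was 25634 ± 5178 (SD, n = 4 libraries), a ratio of 1.51. HSP90B1 made up 28.0% of that difference and HSPA5 21.4%. For the other 66 genes the ratio was 1.32. Without Sox3U3-EGFP library 4 the ratio for all 68 was 1.36. A share of counts depends on transcript length as well as on transcript number, so these shares do not rank the genes by transcript number.

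The members are counted below by role and by stress induction. Beside these counts on all 8 libraries, 11.3% of all tested genes were higher in Sox3U3-EGFP+ cells and 12.1% in Lmx1aE1-EGFP+ cells. Of 12 chaperones and co-chaperones, 10 were higher in Sox3U3-EGFP+ cells and all 12 log2 fold changes were negative, with a median of -0.84. Without Sox3U3-EGFP library 4, 7 of 12 were called and the median was -0.65. Of the other roles, that fit called 3 of 6 PDIs and 3 of 4 stress regulators (medians -0.54 and -0.64), 2 of 8 SRP and receptor genes, 3 of 9 translocon genes, 5 of 14 COPII genes and 2 of 10 cargo and KDEL receptors higher in Sox3U3-EGFP+ cells. The 2 genes it called higher in Lmx1aE1-EGFP+ cells were SEC16A and SEC24B. Of all genes tested in that fit, 8.85% were called higher in Sox3U3-EGFP+ cells and 10.4% in Lmx1aE1-EGFP+ cells.

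HSPA5 (ENSGALG00000001000) encodes BiP, the HSP70 of the ER lumen, which binds unfolded chains and holds the stress sensors inactive. Its level was 1091, 1340, 1259 and 1300 CPM in the Lmx1aE1-EGFP libraries and 2290, 2681, 2364 and 5061 CPM in the Sox3U3-EGFP libraries. Every Sox3U3-EGFP library lay above every Lmx1aE1-EGFP library, and library 4 of the Sox3U3-EGFP group lay far above the other 3. The log2 fold change was -1.31 (SE 0.27, adjusted p = 0.0111, edgeR), and without that library it was -0.97 (adjusted p = 2.24e-06).

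HSP90B1 (ENSGALG00000033789) encodes GRP94, the HSP90 of the ER, which folds integrins, Toll-like receptors and insulin-like growth factors. It measured 1765, 1980, 1827 and 2058 CPM in Lmx1aE1-EGFP+ cells and 3161, 3887, 3609 and 6675 CPM in Sox3U3-EGFP+ cells. The groups did not overlap and Sox3U3-EGFP library 4 was again the highest. The log2 fold change was -1.18 (SE 0.22, adjusted p = 0.00589, edgeR), and -0.89 without library 4.

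HSPA13 (ENSGALG00000019201), a microsomal relative of HSP70, had the most negative fold change of the 68 genes. Its levels were low, 26.8, 19.2, 20.0 and 33.7 CPM in Lmx1aE1-EGFP+ cells against 50.3, 63.1, 55.4 and 99.4 CPM in Sox3U3-EGFP+ cells. The lowest Sox3U3-EGFP library was thus above the highest Lmx1aE1-EGFP library. The log2 fold change was -1.41 (SE 0.23, adjusted p = 0.000933, edgeR), and -1.16 without Sox3U3-EGFP library 4.

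HYOU1 (ENSGALG00000007659), the large HSP70 relative GRP170 that exchanges the nucleotide of BiP, measured 205, 228, 226 and 228 CPM in Lmx1aE1-EGFP+ cells and 342, 434, 445 and 670 CPM in Sox3U3-EGFP+ cells. The Lmx1aE1-EGFP libraries lay close together, and all Sox3U3-EGFP libraries were above them (log2 fold change -1.09, SE 0.16, adjusted p = 0.000466, edgeR). CRELD2 (ENSGALG00000008551), an ER protein with EGF-like domains whose expression rises under ER stress in mammals, measured 91.3, 84.7, 77.8 and 74.4 CPM against 130, 157, 150 and 255 CPM. Its groups did not overlap either (-1.08, SE 0.18, adjusted p = 0.000838). SDF2L1 (ENSGALG00000031982), which works with BiP and its DNAJ partners, measured 96.2, 90.9, 75.4 and 82.0 CPM against 117, 146, 160 and 232 CPM. The gap between its groups was narrower, from 96.2 to 117 CPM (-0.93, SE 0.17, adjusted p = 0.00161).

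Among the J-domain proteins that bring clients to BiP, DNAJC3 was higher in Sox3U3-EGFP+ cells (log2 fold change -0.75, SE 0.12, adjusted p = 0.000384, edgeR). DNAJB9 (ENSGALG00000009492), a J protein that acts on the sensor IRE1 in mammals, measured 74.6, 74.6, 67.1 and 72.0 CPM against 81.1, 92.0, 98.1 and 122 CPM. Its groups were separate by a small margin (-0.45, SE 0.12, adjusted p = 0.0157), and it was no longer called without Lmx1aE1-EGFP library 3 (adjusted p = 0.0529) or Sox3U3-EGFP library 4 (0.0565). DNAJC10, which also reduces disulfides, was not called (-0.15, adjusted p = 0.283).

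The lectin chaperones moved less than the HSP70 and HSP90 chaperones of the lumen. Calnexin (CANX, ENSGALG00000032148), the membrane lectin, measured 437, 431, 445 and 435 CPM in Lmx1aE1-EGFP+ cells and 504, 529, 513 and 743 CPM in Sox3U3-EGFP+ cells. The 3 lower Sox3U3-EGFP libraries were close to each other and still above all Lmx1aE1-EGFP libraries (-0.39, SE 0.11, adjusted p = 0.0194, edgeR). Calreticulin (CALR, ENSGALG00000040368), its soluble counterpart, measured 79.1, 81.8, 81.0 and 84.0 CPM against 84.3, 102, 111 and 129 CPM. The groups nearly touched, at 84.0 and 84.3 CPM (-0.39, SE 0.12, adjusted p = 0.0311). CANX lost its call without Lmx1aE1-EGFP library 1 (adjusted p = 0.0578), Lmx1aE1-EGFP library 2 (0.0678) or Sox3U3-EGFP library 4 (0.0625). CALR lost it without Lmx1aE1-EGFP library 1 (0.0945), 2 (0.0912) or 3 (0.0691), or Sox3U3-EGFP library 3 (0.0777) or 4 (0.111).

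MANF (ENSGALG00000002362), a secreted and ER-resident factor that is induced by ER stress in mammals, was an exception among the stress-induced chaperones. It measured 169, 203, 185 and 188 CPM in Lmx1aE1-EGFP+ cells and 204, 191, 229 and 209 CPM in Sox3U3-EGFP+ cells. The groups overlapped, and the difference was not called (-0.16, SE 0.10, adjusted p = 0.243, edgeR).

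**Figure D2:**
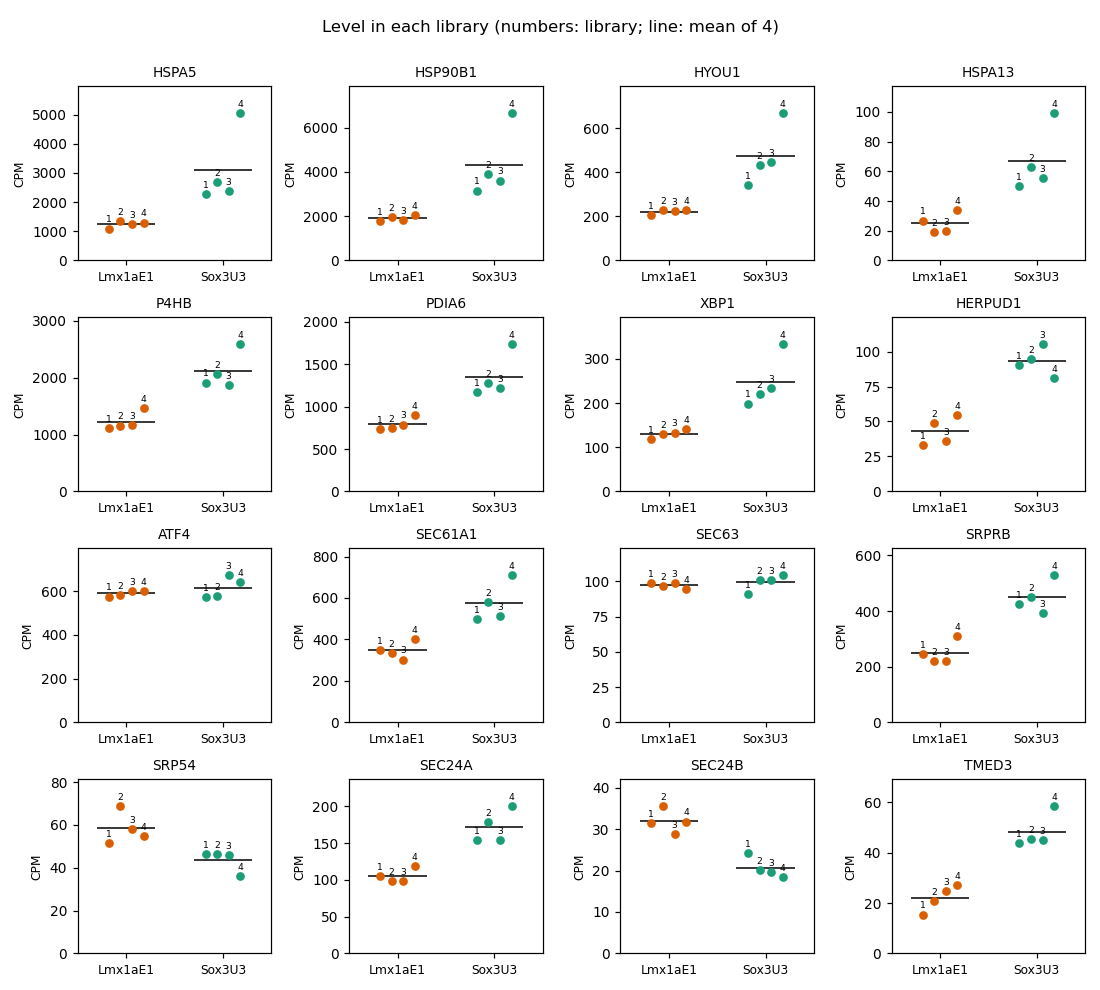
Levels of 16 of the genes in each library, in CPM on axes that start at 0. Orange points are the 4 Lmx1aE1-EGFP libraries, green points the 4 Sox3U3-EGFP libraries, the small numbers name the library and the line is the group mean. HSPA5, HSP90B1, HYOU1 and XBP1 separate the groups with Sox3U3-EGFP library 4 on top, ATF4 and SEC63 overlap, and SRP54 and SEC24B are higher in Lmx1aE1-EGFP+ cells.

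The PDIs followed the chaperones in direction. Of 6, 4 were higher in Sox3U3-EGFP+ cells and all 6 fold changes were negative, with a median of -0.75. P4HB (ENSGALG00000038290), the classical PDI and also a subunit of collagen prolyl 4-hydroxylase, measured 1119, 1157, 1170 and 1464 CPM against 1912, 2063, 1876 and 2594 CPM. Library 4 was the highest of each group, and the groups were well apart (-0.78, SE 0.11, adjusted p = 0.000113, edgeR). PDIA6 had a similar log2 fold change, -0.77 (SE 0.12, adjusted p = 0.000195).

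PDIA4 (ENSGALG00000043006) had a like change with a wide spread in the Sox3U3-EGFP group. It measured 723, 775, 736 and 752 CPM against 877, 1055, 1158 and 1899 CPM, so the groups were separate but library 4 carried much of the Sox3U3-EGFP mean (-0.74, SE 0.21, adjusted p = 0.0338, edgeR). PDIA4 kept its call without Sox3U3-EGFP library 4 (-0.46) and lost it without each Lmx1aE1-EGFP library in turn (adjusted p = 0.0795, 0.0649, 0.0706 and 0.0844 without libraries 1 to 4) and without Sox3U3-EGFP library 3 (0.0611).

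PDIA2 (ENSGALG00000040070), known as a pancreatic PDI in mammals, was near the detection limit, at 1.57, 1.36, 2.78 and 1.67 CPM against 3.56, 3.19, 3.89 and 5.46 CPM. All Sox3U3-EGFP libraries were higher (-1.06, SE 0.33, adjusted p = 0.0288, edgeR), and the call was lost without Lmx1aE1-EGFP library 1 (0.0813), 2 (0.0846) or 4 (0.0606) or Sox3U3-EGFP library 4 (0.0829). PDIA3 (ERp57), which works with calnexin and calreticulin on glycoproteins, was not called (-0.16, adjusted p = 0.293), nor was PDIA5 (-0.21, adjusted p = 0.0987).

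Of the 4 regulators, HERPUD1 and XBP1 were higher in Sox3U3-EGFP+ cells, and ATF6 and ATF4 were not called. HERPUD1 (ENSGALG00000001220), a stress-induced membrane protein of ER-associated degradation, measured 33.4, 48.9, 35.8 and 54.6 CPM in Lmx1aE1-EGFP+ cells and 90.2, 94.8, 106 and 81.1 CPM in Sox3U3-EGFP+ cells. Here Sox3U3-EGFP library 4 was the lowest of its group, and the groups did not overlap (-1.10, SE 0.15, adjusted p = 7.95e-05, edgeR). The log2 fold change was -1.16 without Sox3U3-EGFP library 4.

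XBP1 (ENSGALG00000005796), the transcription factor of secretory cells, measured 118, 130, 133 and 142 CPM against 199, 220, 234 and 334 CPM. All 4 Sox3U3-EGFP libraries were above all Lmx1aE1-EGFP libraries (-0.91, SE 0.14, adjusted p = 0.000206, edgeR). XBP1 is activated by splicing of its mRNA by IRE1, which counts per gene do not show.

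ATF4 (ENSGALG00000012135), the factor that PERK raises at the level of translation, measured 576, 584, 601 and 599 CPM in Lmx1aE1-EGFP+ cells and 573, 576, 675 and 642 CPM in Sox3U3-EGFP+ cells. The groups overlapped fully at the low end (-0.06, SE 0.08, adjusted p = 0.630, edgeR). ATF6 (ENSGALG00000032278), the sensor that is cleaved to a transcription factor, spread widely within both groups, at 47.7, 52.9, 67.4 and 84.8 CPM against 92.3, 107, 82.9 and 56.7 CPM. Lmx1aE1-EGFP library 4 and Sox3U3-EGFP library 4 crossed (-0.42, SE 0.21, adjusted p = 0.173). ATF6 was called without Sox3U3-EGFP library 4 (-0.56, adjusted p = 0.0287) or without Lmx1aE1-EGFP library 4 (-0.60, adjusted p = 0.0432). On all 8 libraries it was called with deep and shallow libraries as blocks (-0.43, adjusted p = 0.0156) and by limma-voom with quality weights (-0.58, adjusted p = 0.0197).

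Of the 68 genes, 13 are on a short list of textbook targets of the mammalian ER stress response, among them HSPA5, HSP90B1, HYOU1, SDF2L1, CRELD2, DNAJC3, HERPUD1 and XBP1. The list is not complete, so the other 55 genes are not a set of non-targets. In this group 11 were higher in Sox3U3-EGFP+ cells, all but MANF and SEC61B, with a median log2 fold change of -0.91. Among the other 55 genes 18 were higher in Sox3U3-EGFP+ cells and 3 in Lmx1aE1-EGFP+ cells, with a median of -0.20. Without Sox3U3-EGFP library 4 the counts were 10 of 13, with a median of -0.71, and 15 and 2 of 55, with a median of -0.14. These are descriptions, and the difference between the 13 and the 55 was not tested.

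By library, the median log2 CPM of the 13 genes, each taken relative to its mean over all 8 libraries, was -0.39, -0.36, -0.44 and -0.33 in the Lmx1aE1-EGFP libraries and 0.11, 0.32, 0.31 and 0.91 in the Sox3U3-EGFP libraries. The same medians over the other 55 genes were -0.06, -0.13, -0.11 and -0.02 against 0.02, 0.09, 0.14 and 0.22. Over all genes tested the medians lay between -0.02 and 0.03. For both sets every Sox3U3-EGFP library lay above every Lmx1aE1-EGFP library, and Sox3U3-EGFP library 4 was the highest. For the 55 genes the gap was narrow, from -0.02 in Lmx1aE1-EGFP library 4 to 0.02 in Sox3U3-EGFP library 1. The medians over all genes tested lay about as far apart in these libraries, at -0.02 and 0.03. The separation of the 55 genes at that point thus cannot be told apart from an offset of all genes.

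**Figure D3:**
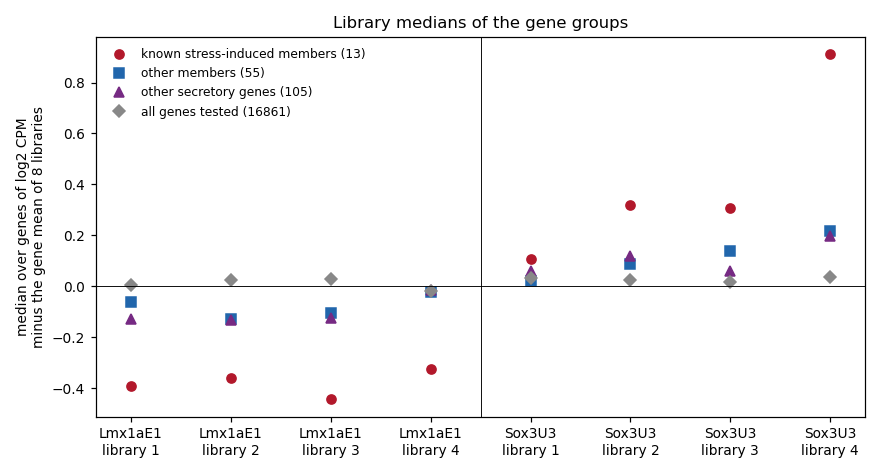
For each library (x axis), the median over genes of log2 CPM minus the gene's mean over the 8 libraries (y axis). Red circles are the 13 known stress-induced genes, blue squares the other 55 ER genes, purple triangles 105 other secretory genes and grey diamonds all 16861 genes tested. The red medians lie between -0.44 and -0.33 in the Lmx1aE1-EGFP libraries and between 0.11 and 0.91 in the Sox3U3-EGFP libraries.

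The genes called in targeting to the ER went in both directions. Of 8 SRP and SRP receptor genes, the receptor subunits SRPRB and SRPRA were higher in Sox3U3-EGFP+ cells. SRP54, the subunit that binds the signal peptide, was higher in Lmx1aE1-EGFP+ cells. These are 25.0% and 12.5%, beside 11.3% and 12.1% of all tested genes. The share higher in Lmx1aE1-EGFP+ cells was thus near the background. SRPRB (ENSGALG00000026302), the membrane anchor of the receptor, measured 247, 220, 221 and 310 CPM against 426, 451, 394 and 530 CPM. The groups were clearly separate (-0.85, SE 0.12, adjusted p = 9.85e-05, edgeR), and SRPRA changed less (-0.46, SE 0.10, adjusted p = 0.00416).

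SRP54 (ENSGALG00000023135) measured 51.5, 68.9, 58.2 and 55.0 CPM in Lmx1aE1-EGFP+ cells and 46.2, 46.3, 45.8 and 36.1 CPM in Sox3U3-EGFP+ cells. All Lmx1aE1-EGFP libraries were higher, by a small margin over 3 of the Sox3U3-EGFP libraries (0.42, SE 0.13, adjusted p = 0.0304, edgeR). The call was lost without Lmx1aE1-EGFP library 2 (0.119) or 3 (0.0727) or Sox3U3-EGFP library 4 (0.0718). The other 5 SRP proteins, SRP9, SRP14, SRP19, SRP68 and SRP72, were not called, with log2 fold changes from -0.20 to 0.12. Taken within each library, SRPRB had 3.19 to 5.64 counts per count of SRP54 in the Lmx1aE1-EGFP libraries and 8.60 to 14.7 in the Sox3U3-EGFP libraries. This ratio needs no scaling between libraries. The pair was chosen after its values were seen.

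In the translocon, 3 of 9 genes were higher in Sox3U3-EGFP+ cells and 6 were not called. SEC61A1 (ENSGALG00000005966), the pore itself, measured 351, 335, 303 and 402 CPM against 498, 580, 514 and 712 CPM. The groups did not overlap (-0.73, SE 0.12, adjusted p = 0.000311, edgeR). Its paralogue SEC61A2 (-0.58, adjusted p = 0.00262) and SSR1, a subunit of the translocon-associated complex (-0.48, adjusted p = 0.00311), were also higher. The small pore subunits were not called (SEC61B -0.25, adjusted p = 0.150; SEC61G 0.26, adjusted p = 0.427). The same held for SEC62 (-0.30, adjusted p = 0.0917) and for SEC63 (-0.03, adjusted p = 0.860), which serve entry after translation and, for SEC63, the recruitment of BiP. SSR2 and SSR3 were not called either, at -0.02 and -0.13.

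None of the 5 signal peptidase genes was called in edgeR's test on all 8 libraries, and the groups overlapped for all 5. At an unadjusted p under 0.05 the count was 1, SEC11C, and with DESeq2 and limma-voom it was 0. Among the 4 shallower libraries edgeR called SEC11C (-0.91, adjusted p = 0.0399). The catalytic subunits SEC11C (-0.50, adjusted p = 0.117) and SEC11A (0.03, adjusted p = 0.866) had the lowest and a middle value, and SPCS1 had the highest (0.15, adjusted p = 0.358). SEC11C was at 23.8, 19.5, 21.7 and 24.5 CPM against 23.0, 23.0, 31.7 and 50.1 CPM, so only Sox3U3-EGFP libraries 3 and 4 lay above the Lmx1aE1-EGFP range.

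COPII export held the other 2 genes that were higher in Lmx1aE1-EGFP+ cells. Of 14 genes, 5 were higher in Sox3U3-EGFP+ cells, 2 in Lmx1aE1-EGFP+ cells, and 7 were not called. The called shares are 35.7% and 14.3%, beside 11.3% and 12.1% of all tested genes. The share higher in Lmx1aE1-EGFP+ cells was thus near the background. The inner coat pairs SEC23 with a SEC24 paralogue, which binds the sorting signals of the cargo. The row SEC23A (ENSGALG00000008793) measured 161, 155, 171 and 211 CPM against 271, 354, 325 and 416 CPM. The groups were separate (-0.97, SE 0.13, adjusted p = 6.02e-05, edgeR). The row SEC23A (ENSGALG00000010150) overlapped between the groups and was not called (-0.37, SE 0.16, adjusted p = 0.112).

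The SEC24 paralogues went in opposite directions. SEC24D (-0.78, SE 0.17, adjusted p = 0.00268, edgeR) and SEC24A (-0.70, SE 0.11, adjusted p = 0.000287) were higher in Sox3U3-EGFP+ cells. SEC24B (ENSGALG00000035482), whose loss in mice disturbs planar cell polarity through the cargo Vangl2, measured 31.4, 35.6, 28.9 and 31.8 CPM in Lmx1aE1-EGFP+ cells and 24.2, 20.2, 19.6 and 18.3 CPM in Sox3U3-EGFP+ cells. Its Lmx1aE1-EGFP libraries were all higher (0.62, SE 0.15, adjusted p = 0.00530). The counts of SEC24A per count of SEC24B were 3.35, 2.77, 3.42 and 3.75 in the Lmx1aE1-EGFP libraries and 6.34, 8.87, 7.84 and 11.0 in the Sox3U3-EGFP libraries. The mean ratio differed 2.56-fold, and for SEC24D over SEC24B it differed 2.69-fold. These pairs too were chosen after their values were seen.

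SEC16A (ENSGALG00000002364), the scaffold of ER exit sites, measured 34.7, 34.1, 40.0 and 34.1 CPM in Lmx1aE1-EGFP+ cells and 27.2, 27.5, 23.2 and 14.4 CPM in Sox3U3-EGFP+ cells. All Lmx1aE1-EGFP libraries were higher, and Sox3U3-EGFP library 4 was the lowest (0.62, SE 0.18, adjusted p = 0.0185, edgeR). Without Lmx1aE1-EGFP library 3 the adjusted p was 0.0699. SEC23IP, a partner of SEC23 at exit sites (-0.62, adjusted p = 0.00145), and the SNARE SEC22B (-0.35, adjusted p = 0.0136) were higher in Sox3U3-EGFP+ cells. SEC22B lost its call without Lmx1aE1-EGFP library 1 (0.0572) or 2 (0.0570). The outer coat was not called, with SEC13 at 0.09, SEC31A at 0.06 and SEC31B at 0.22.

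The cargo receptors and KDEL receptors were centred on 0, with a median of 0.00 over 10 genes. TMED3, TMED2 and KDELR2 were higher in Sox3U3-EGFP+ cells, and the other 7 were not called. TMED3 (ENSGALG00000008272), a p24 cargo receptor of early secretion, measured 15.4, 20.8, 24.7 and 27.3 CPM against 43.8, 45.3, 44.8 and 58.6 CPM. The lowest Sox3U3-EGFP library was well above the highest Lmx1aE1-EGFP library (-1.11, SE 0.17, adjusted p = 0.000207, edgeR), and without Sox3U3-EGFP library 4 the log2 fold change was -0.99.

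TMED2 changed less (-0.42, SE 0.10, adjusted p = 0.00501, edgeR), and TMED10, with which it forms a complex, was not called (0.01, SE 0.09, adjusted p = 0.948). KDELR2 overlapped between the groups (-0.32, SE 0.11, adjusted p = 0.0428) and was no longer called without Lmx1aE1-EGFP library 2 (0.135), 3 (0.135) or 4 (0.0521), or Sox3U3-EGFP library 3 (0.0769) or 4 (0.157). DESeq2 on the filtered genes did not call KDELR2 (-0.30, adjusted p = 0.0824). KDELR3 was not called (-0.01, SE 0.13, adjusted p = 0.978). TMED6 and TMED11 were at 3.14 CPM or less in each library, too low for a difference of this size to be detectable.

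**Figure D4:**
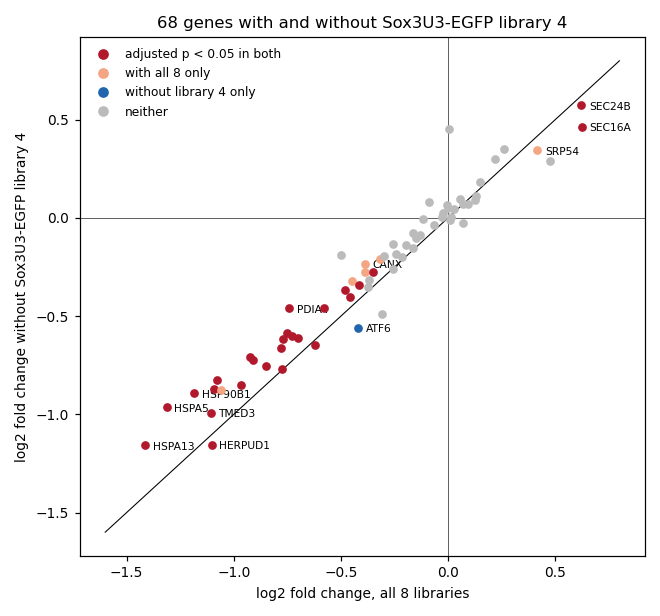
The log2 fold change of each of the 68 genes with all 8 libraries (x axis) and without Sox3U3-EGFP library 4 (y axis), with the line of equality. Dark red genes are called in both fits (26), light red genes with all 8 libraries only (6), the blue gene, ATF6, without library 4 only, and grey genes in neither. Points above the line at the left, such as HSPA5 (-1.31 and -0.97), are genes whose difference was smaller without that library, and no called gene crosses 0.

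The Sox3U3-EGFP libraries varied more among themselves. The median SD of log2 CPM over the 68 genes was 0.13 for Lmx1aE1-EGFP+ and 0.21 for Sox3U3-EGFP+ libraries, and 49 of 68 genes had the larger SD in the Sox3U3-EGFP group. Sox3U3-EGFP library 4 held the highest value of its group for 44 of 68 genes and for 11 of the 13 stress-induced genes. Lmx1aE1-EGFP library 4 held the highest value of its group for 39. These SDs and counts were not taken over all genes tested. A trait of the ER genes thus cannot be told apart from a trait of the libraries. The calls lost without Sox3U3-EGFP library 4 were those of DNAJB9, CANX, CALR, PDIA2, KDELR2 and SRP54.

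The wider secretory pathway was read from 6 lists of other genes. Of 105 tested genes, 38 were higher in Sox3U3-EGFP+ cells and 13 in Lmx1aE1-EGFP+ cells, with a median of -0.17. These are 36.2% and 12.4%, beside 11.3% and 12.1% of all tested genes, so the share higher in Lmx1aE1-EGFP+ cells was near the background. The groups did not overlap for 47, or 44.8%, beside 26.0% of all tested genes. Without Sox3U3-EGFP library 4 the counts were 30 and 9, beside 8.85% and 10.4% of all genes tested in that fit. Both thresholds were passed by CHAC1, DERL3 and TUSC3, 3 of 105, where 3.18% of all tested genes passed them.

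CHAC1, which degrades glutathione and is a target of ATF4 in mammals, measured 11.0, 13.8, 14.0 and 12.6 CPM against 30.9, 33.7, 68.4 and 77.9 CPM. Its Sox3U3-EGFP libraries fell into a lower pair and a higher pair, all above Lmx1aE1-EGFP+ cells (-2.02, SE 0.30, adjusted p = 0.000638, edgeR). In the list of 12 stress signalling genes, 6 were higher in Sox3U3-EGFP+ cells (50.0%, beside 11.3% of all tested genes) and the other 6 were not called. The sensor IRE1 (ERN1) was higher in Sox3U3-EGFP+ cells (-0.42, adjusted p = 0.0368, edgeR), while PERK (EIF2AK3) was not called (0.16, adjusted p = 0.730). The groups overlapped for ERN1, at 46.2 to 57.3 CPM against 54.8 to 78.5 CPM. ERN2, on the same list, was also called with overlapping groups (-0.63, adjusted p = 0.0162). ERN1, EIF2AK3 and ERN2 were picked for mention after their values were seen.

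ER-associated degradation, which returns misfolded proteins to the cytosol, had 7 of 13 genes higher in Sox3U3-EGFP+ cells and 2 in Lmx1aE1-EGFP+ cells. These are 53.8% and 15.4%, beside 11.3% and 12.1% of all tested genes, so the second share was near the background. The 2 genes were EDEM1 and HERPUD2, and the groups overlapped for both. DERL3, a channel subunit known from secretory cells, measured 37.1, 45.9, 39.9 and 44.1 CPM against 83.5, 107, 137 and 195 CPM. The groups were far apart (-1.64, SE 0.22, adjusted p = 0.000375, edgeR). SEL1L, the scaffold of the ubiquitin ligase, was also higher (-1.44, SE 0.20, adjusted p = 0.000269).

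The oligosaccharyltransferase, which adds glycans to the entering chain, had 4 of 10 genes higher in Sox3U3-EGFP+ cells and 2 in Lmx1aE1-EGFP+ cells. These are 40.0% and 20.0%, beside 11.3% and 12.1% of all tested genes. TUSC3, an accessory subunit with an oxidoreductase fold, was at 7.72, 10.2, 10.3 and 13.3 CPM against 29.2, 29.6, 27.1 and 35.3 CPM. Its groups were well separated (-1.53, SE 0.18, adjusted p = 1.61e-05, edgeR). The alternative catalytic subunits went opposite ways, STT3A, which acts at the translocon, at -0.46 (adjusted p = 0.00902) and STT3B, which acts on skipped sites, at 0.54 (adjusted p = 0.0212). They were named after their values were seen.

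Of 28 further folding enzymes, 9 were higher in Sox3U3-EGFP+ cells and 4 in Lmx1aE1-EGFP+ cells. These are 32.1% and 14.3%, beside 11.3% and 12.1% of all tested genes, so the second share was near the background. CLGN, a relative of calnexin known from the testis in mammals, had the largest change of them (-1.37, SE 0.22, adjusted p = 0.000273, edgeR). In the other direction were FKBP9, a prolyl isomerase (0.67, adjusted p = 0.00201), TXNDC5, a PDI relative (0.63, adjusted p = 0.00265), and DNAJB14, a membrane-bound J protein (0.60, adjusted p = 0.0106).

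Membrane protein insertion had 1 of 12 genes higher in Sox3U3-EGFP+ cells, TRAM1, and 3 in Lmx1aE1-EGFP+ cells, EMC6, EMC7 and TMCO1. These are 8.33% and 25.0%, beside 11.3% and 12.1% of all tested genes. EMC7, a subunit of the ER membrane complex, had a log2 fold change of 0.59 (SE 0.16, adjusted p = 0.0127, edgeR). Of 30 genes of COPI coats and Golgi traffic, 11 were higher in Sox3U3-EGFP+ cells (36.7%) and 2 in Lmx1aE1-EGFP+ cells (6.67%), PREB and LMAN1. PREB, the SEC12 that starts COPII assembly, measured 15.6, 12.1, 16.2 and 9.22 CPM against 9.84, 7.40, 7.88 and 5.97 CPM. Its groups overlapped (0.75, SE 0.23, adjusted p = 0.0235).

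**Figure D5:**
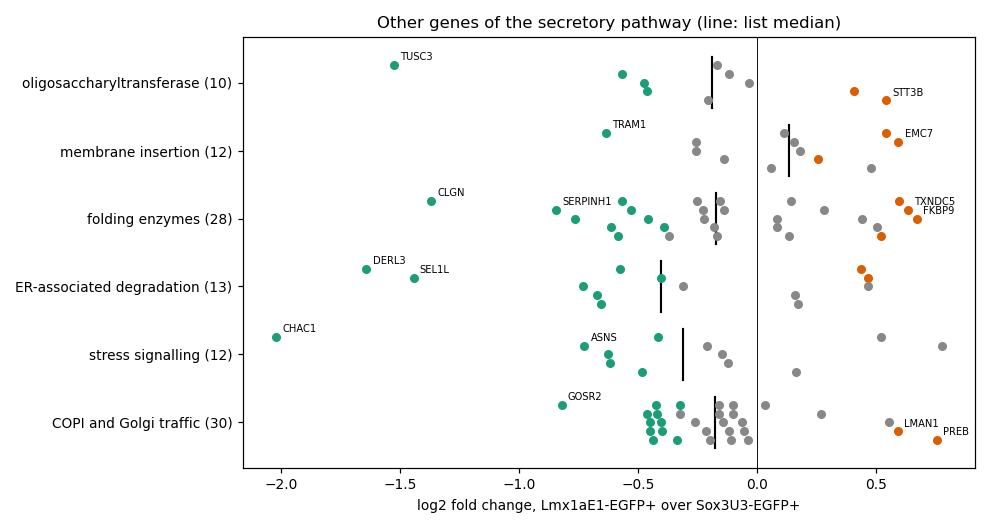
Log2 fold change of Lmx1aE1-EGFP+ over Sox3U3-EGFP+ cells (x axis) for 105 other genes of the secretory pathway in 6 lists (y axis, the number of genes in brackets). Green points are called higher in Sox3U3-EGFP+ cells (38), orange points higher in Lmx1aE1-EGFP+ cells (13), grey points are not called, and the black line is the median of the list. CHAC1, DERL3 and TUSC3 lie furthest to the left, and PREB is the called gene furthest to the right.

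Several lists of markers of other cell types differed between the groups. Beside the counts below, 11.3% of all tested genes were higher in Sox3U3-EGFP+ cells and 12.1% in Lmx1aE1-EGFP+ cells. Of 9 epidermal genes, 8 were higher in Sox3U3-EGFP+ cells. The 9 summed to 699 to 1045 CPM in the Lmx1aE1-EGFP libraries and 3653 to 4702 CPM in the Sox3U3-EGFP libraries. The largest parts were CLDN1 (means of 472 against 2360 CPM) and EPCAM (156 against 722 CPM). The keratin KRT14 was called but low (1.64 against 5.15 CPM). KRT5 was low and not called (1.42 against 1.38 CPM, log2 fold change 0.02, adjusted p = 0.982, edgeR). Of 6 secretory epithelium genes, 3 were higher in Sox3U3-EGFP+ cells (AGR2, itself an ER-resident PDI relative, ASTL and UPK1B). The summed levels of that list were 31.2 to 36.2 against 217 to 322 CPM. The other 3 were not called in edgeR. AGR3 (0.95, adjusted p = 0.101) and CREB3L1 (0.78, adjusted p = 0.0757) were positive and UPK3A (-0.41, adjusted p = 0.739) negative. SPDEF and TFF2 from that list had at most 78 and 52 counts in any library, and OVOL1 from the epidermal list at most 20. Of 8 pharyngeal endoderm genes, 3 were higher (18.1 to 29.6 against 48.7 to 77.3 CPM), and of 8 neural crest genes, 5 were higher in Lmx1aE1-EGFP+ cells (668 to 769 against 231 to 317 CPM). SOX9 of the crest list was called higher in Sox3U3-EGFP+ cells, with overlapping groups (-0.52, adjusted p = 0.0406, edgeR). Of 8 mesenchymal genes, 5 were higher in Lmx1aE1-EGFP+ cells, with sums that overlapped (835 to 941 against 589 to 1127 CPM). Of 8 heart muscle genes, 3 were higher in Sox3U3-EGFP+ cells, with overlapping sums (46.6 to 74.7 against 69.6 to 234 CPM), and of 6 blood and endothelium genes 1 was (46.8 to 670 against 128 to 312 CPM). None of the genes of these lists that were tested was at 0 in every library of a group, while HBBA from the blood list, which did not pass the filter, had 0 counts in the Sox3U3-EGFP libraries. The part of these markers in the differences of the ER genes was not tested.

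Signs of handling stress held genes called in both directions. Of 12 cytosolic heat shock genes, 3 were higher in Sox3U3-EGFP+ cells and 5 in Lmx1aE1-EGFP+ cells. These are 25.0% and 41.7%, beside 11.3% and 12.1% of all tested genes. Their summed levels overlapped, at 8043 to 8506 CPM against 7504 to 8419 CPM. The sums hide single genes. HSPA2 alone passed both thresholds, with means of 271 against 1018 CPM (-1.91, adjusted p = 5.20e-07, edgeR). The largest called change in the other direction was that of HSPH1 (1.06, adjusted p = 3.41e-05). Of 9 early genes that dissociation can induce, 3 were higher in Sox3U3-EGFP+ cells and 1 in Lmx1aE1-EGFP+ cells (33.3% and 11.1%). Their sums did not overlap and were higher in every Sox3U3-EGFP library, at 394 to 414 CPM against 453 to 728 CPM. DUSP1 (-1.09) and BTG2 (-1.05) were among the 3, and JUN (0.96) was the 1. FOS (0.64) and EGR1 (0.85) were positive and not called. The part of handling in the differences of the ER genes was not tested.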

How the data were processed

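Bulk RNA was measured in 4 Lmx1aE1-EGFP+ and 4 Sox3U3-EGFP+ libraries. The authors deposited raw counts per Ensembl gene, made with the default NF-core RNAseq pipeline (STAR, with Trim Galore and featureCounts in the submitters' processing notes) on galGal6. The strand setting is not given in the sources used here, so overlapping genes and near-identical copies are uncertain.

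Counts were filtered with filterByExpr, scaled by TMM and compared in edgeR 4.0.16 (R 4.3.3) by its quasi-likelihood test with robust fitting, with group as the only term and Benjamini-Hochberg adjustment over 16861 genes. The SE is the absolute log2 fold change divided by the root of F. Scripts were tested on simulated counts.

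The ER genes and all lists were chosen with earlier results of these data known. Values per library are given for the 12 called ER genes of largest fold change in each direction and for a fixed list of regulators and chaperones, while P4HB, PDIA4, SEC61A1 and SEC11C were added after their values were seen. In the other lists, the 5 called genes of largest fold change in each direction were named. Further genes were named where few were called or where genes of a list went opposite ways.

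Alternatives were DESeq2 1.42.0, limma-voom (limma 3.58.1), other scaling and filters, thinning, the replicate number or depth class as a block, the deeper or shallower libraries, each library left out, and other thresholds.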

Additional observations from a re-analysis of the deposited data

Results flagged for a closer look

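A value was marked when the gap from the highest or lowest library to its nearest neighbour, divided by the range of the group of 4, exceeded Dixon's critical value at the 95% level. Among 136 groups of 4 libraries (68 genes in 2 groups), 14 were marked, beside a nominal 1 in 20, or 6.8. That figure takes values as normal and groups as independent, while the genes share libraries and CPM were not logged. It is thus no measure of chance here, and the rate over all genes was not taken.

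In 7 of the 14 the library was Sox3U3-EGFP library 4. It was far above the other 3 for SRPRA (gap 0.905 of the range), TMED3 (0.897), CANX (0.894), SEC22A (0.874), SEC61A2 (0.866) and HSPA5 (0.859), and far below them for SRP54 (0.949). Without that library HSPA5, TMED3, SRPRA and SEC61A2 were still called and CANX and SRP54 were not.

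Lmx1aE1-EGFP library 4 was far above its group for DNAJC10 (0.923), SRP72 (0.883), P4HB (0.851) and TMED10 (0.836). Lmx1aE1-EGFP library 1 was far below its group for HYOU1 (0.895) and SEC22C (0.873). Lmx1aE1-EGFP library 3 was far above its group for SEC16A (0.899). What sets these libraries apart was not tested.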

How the results depend on the processing

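Over 20 alternative fits, none of the 32 called ER genes changed sign, and 19 to 32 of them were still called. On all 8 libraries, KDELR2 lost its call with RLE scaling, without a filter and with DESeq2. CALR lost it without a filter, with DESeq2 on all genes and with limma-voom. SRP54 lost it with library size only and with thinning, PDIA2 with thinning, PDIA4 with limma-voom and CANX with DESeq2 on all genes. The count higher in Sox3U3-EGFP+ cells, 29, fell to 19 among the deeper libraries alone and to 21 at an adjusted p under 0.01. On leaving out each library it was 23 (without Lmx1aE1-EGFP library 2) to 31 (without Sox3U3-EGFP library 2). The shares of all genes tested in these 2 fits were 7.41% and 10.1%. The count higher in Lmx1aE1-EGFP+ cells, 3, was 0 among the deeper libraries, 1 at an adjusted p under 0.01, and 1 (without Lmx1aE1-EGFP library 3) to 3 on leaving out each library. The count past both thresholds, 0, was 3 within the shallower libraries (HSPA13 at -1.74, HSPA5 at -1.61 and TMED3 at -1.52), 8 with a fold threshold of 1 on the log2 scale, and 0 to 1 with each library left out, where the gene was HSPA13 (-1.61 without Lmx1aE1-EGFP library 4, -1.53 without Sox3U3-EGFP library 1). The median, -0.30, was -0.17 within the deeper libraries and -0.32 to -0.20 with each library left out, at its smallest without Sox3U3-EGFP library 4. ATF4, not called in any fit, turned to 0.085 within the deeper libraries.

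Of the other secretory genes, 38 were higher in Sox3U3-EGFP+ cells, 13 when only deeper libraries were fitted, and 25 (without Lmx1aE1-EGFP library 2) to 41 with each library left out. Those higher in Lmx1aE1-EGFP+ cells, 13, were 8 with library size only, 8 with the deeper and 5 with the shallower libraries, 3 at an adjusted p under 0.01, and 5 (without Lmx1aE1-EGFP library 3) to 10 with each library left out, with 8 without Lmx1aE1-EGFP library 2 or Sox3U3-EGFP library 2. Why these counts moved was not tested, beyond the smaller number of libraries in each such fit.

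No pairing by replicate number was seen: same-numbered libraries had residual correlations from -0.23 to 0.05. With 4 libraries per group, these values cannot show whether same-numbered libraries were prepared together. With the replicate block, 27 and 2 ER genes were called, with SRP54, KDELR2 and CALR lost. Of 419 values of 21 named ER genes under the alternatives, 377 kept direction and side of the threshold, 37 lost the call, 4 gained it and 1 (ATF4) changed sign.

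Genes under 10 CPM in both groups (5 of 68, with as few as 2 counts in a library) limit what can be detected. No source used here names molecular identifiers, so counts are of reads.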
